A study of Homo sapiens with 4 samples.

Results

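The zinc finger genes of human chromosome 19 were compared between 2 groups of TPC1 cells. They were taken as every listed gene named ZNF or ZFP plus a number, with at most 1 further letter, whose listed position is on chromosome 19, without antisense entries. The rule gave 177 of the 13165 genes in the table. TPC1 is a cell line established from a human papillary thyroid carcinoma. Both groups were grown in DMEM with serum and selected with puromycin. TPC1-Vector cells carried the empty vector, and TPC1-C1orf106 cells carried the same vector with C1orf106, now called INAVA, a gene the study raised to ask how it alters thyroid cancer cells. The stably selected cells of each group, made by retroviral transfer and selected separately, were sequenced as 2 libraries. The deposited table gives each group 1 FPKM value per gene (fragments scaled by transcript length and by the total mapped), in which both libraries are combined. There is therefore no replicate check, no SD and no test for any difference below, and whether the groups overlap between libraries cannot be seen. Sequencing depth is unknown, so no counting error is given either.

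Zinc finger proteins of this kind read DNA through rows of C2H2 fingers, each a short fold held by a zinc ion that contacts a few bases. Many also carry a KRAB box near the start of the protein, which recruits the corepressor TRIM28 and through it the histone methyltransferase SETDB1 and HP1 proteins, giving compact, silent chromatin. The family grew by repeated tandem duplication, which left the genes side by side in clusters on chromosome 19, and many of its members bind and silence transposable elements.

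C1orf106 itself measured 7.96 FPKM without and 123 FPKM with the transgene, a ratio of 15.4. In every pair of FPKM values given below, TPC1-Vector comes first and TPC1-C1orf106 second. Of the thyroid markers, PAX8 was at 60.1 and 55.7 FPKM and FOXE1 at 5.26 and 5.89 FPKM. Thyroglobulin and thyroid peroxidase, the genes that define hormone-making thyroid cells, were not analysed here, and neither were TSHR, SLC5A5 and NKX2-1. Of the epithelial keratins, KRT18 was at 140 and 212 FPKM and KRT8, which shares its listed position with KRT18, at 23.4 and 10.5 FPKM, and KRT19 was not analysed here. Of the markers of other cell types, the fibroblast collagen gene COL1A1 was at 0.937 and 0.571 FPKM, and PTPRC, CD3E and PECAM1 were not analysed here.

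Most of the zinc finger genes were transcribed at a low level. Their median, as the mean of both groups, was 1.75 FPKM, and the levels ran from 0.239 to 34.5 FPKM. Under 1 FPKM lay 52 members (29.4%), and 5 (2.82%) reached 10 FPKM or more. The 234 genes of the same name rule on other chromosomes had a median of 3.63 FPKM, with 12.4% under 1 FPKM and 15.8% at 10 FPKM or more. Over all 13165 genes the median was 10.1 FPKM, with 13.2% under 1 FPKM. The table itself limits the lower end. The lowest higher-group value of any gene in it was 0.278 FPKM. Of the 266 chromosome 19 genes that GENCODE release 29 names by the same rule, 89 were not analysed here.

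The gene with the highest level was ZNF146, which codes for a protein made almost wholly of zinc fingers, at 34.9 and 34.2 FPKM. It shares its listed position with ZNF565, so reads may be split between both. ZNF787 followed at 19.2 and 18.1 FPKM, then ZNF581 at 11.8 and 12 FPKM and ZNF317 at 11.6 and 11.3 FPKM. These 4 genes were close to equal in both groups. In RNA from whole cultures, a lower value cannot be split into fewer expressing cells and less RNA per cell. The other gene above 10 FPKM, ZNF114, was at 14.9 and 6.91 FPKM.

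ZNF114 stood apart from all other members. Its ratio was 0.464, and its log2 fold change was -1.05. Fold changes here are TPC1-C1orf106 over TPC1-Vector on log2(FPKM + 0.5), a scale that understates the change of genes at a low level. They were computed for the 12305 genes whose 2 values averaged 0.5 FPKM or more, which keeps 150 of the 177 zinc finger genes. The edge of that filter ran between ZNF493 at a mean of 0.485 FPKM, left out, and ZNF470 at 0.561 FPKM, kept. ZNF114 had the lowest value of the 369 kept zinc finger genes of any chromosome and ranked 27 from the lowest of all 12305 genes. The next lowest member, ZNF653, was at -0.45.

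**Figure D1:**
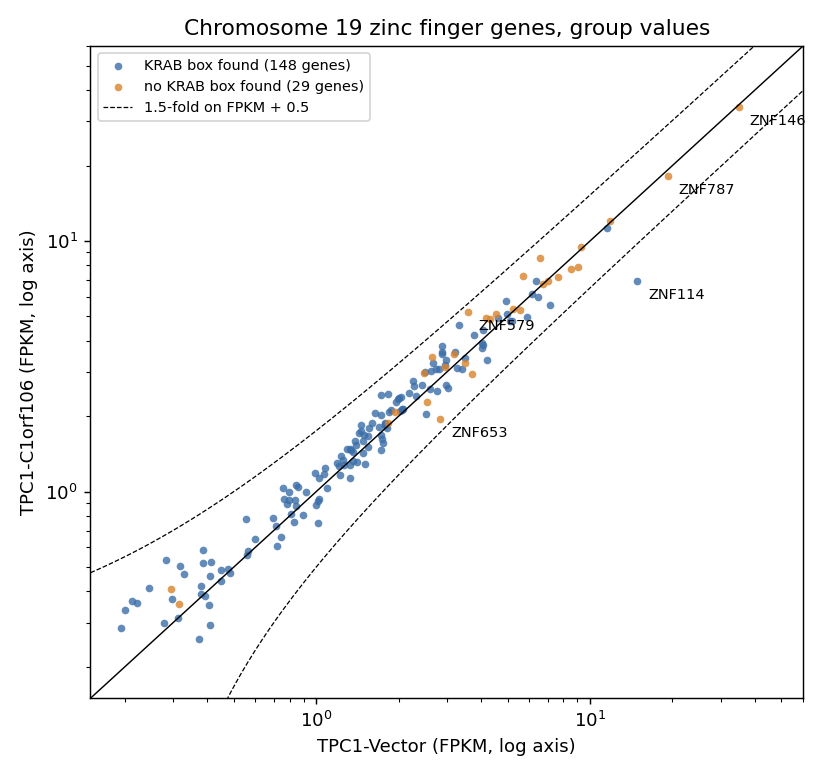
Each point is 1 of the 177 zinc finger genes, with its FPKM in TPC1-Vector on the x axis and in TPC1-C1orf106 on the y axis, both log axes; the solid line marks equal values and the dashed lines a 1.5-fold difference of FPKM + 0.5. ZNF114, at 14.9 and 6.91 FPKM, is the only kept gene outside the dashed lines.

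No kept member was at least 1.5-fold higher in TPC1-C1orf106, where 2.24% of all kept genes were. ZNF114 was the only member at least 1.5-fold lower, where 1.45% of all kept genes were. At a smaller threshold, a log2 fold change of 0.3219, 7 of the 150 members (4.67%) were higher, against 7.69% of all kept genes, and 3 (2%) were lower, against 6.74%. The remaining 140 members lay within 0.3219 in either direction, with ZNF784 just inside at 0.3216, from 2.66 to 3.45 FPKM.

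The same count was taken over a shared range of levels. Between 0.5 and 5 FPKM, a range chosen after the values were seen, 122 of 128 members lay within a log2 fold change of 0.3219. Over all genes in that range it was 2881 of 3721, and over the zinc finger genes of other chromosomes 121 of 127. At 5 FPKM or more it was 18 of 22 members and 7649 of 8584 genes.

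The direction leaned to higher values in TPC1-C1orf106. Of the 150 kept members 97 (64.7%) were higher, against 50.8% of all kept genes, and the median log2 fold change was 0.06 with quartiles of -0.06 and 0.15. The median over all kept genes was 0.0033. Of the kept members under 5 FPKM 87 of 128 (68.0%) were higher, against 49.9% of all kept genes in that range. At 5 FPKM or more it was 10 of 22 members (45.5%), against 51.3% of all kept genes. The 27 members under the filter had 20 higher values. Some lie at the lower edge of the table and may be listed only through their higher group. No share over all genes under the filter was taken, so that count says nothing more about the lean.

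The same values were taken for zinc finger genes elsewhere and for the other genes of chromosome 19. The 219 kept zinc finger genes of other chromosomes had a median of -0.01, with 103 (47.0%) higher. The 621 kept genes of chromosome 19 that are not in the set had a median of 0.06, with 403 (64.9%) higher. Over all levels this was nearly the share of the zinc finger genes beside them, but by level the shares ran in opposite directions. Of the other genes, 140 of 238 (58.8%) were higher at 0.5 to 10 FPKM and 263 of 383 (68.7%) at 10 FPKM or more. Of the members, 87 of 128 (68.0%) were higher under 5 FPKM and 10 of 22 (45.5%) at 5 FPKM or more. The difference between these sets was not tested, since each gene has 1 value per group.

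**Figure D2:**
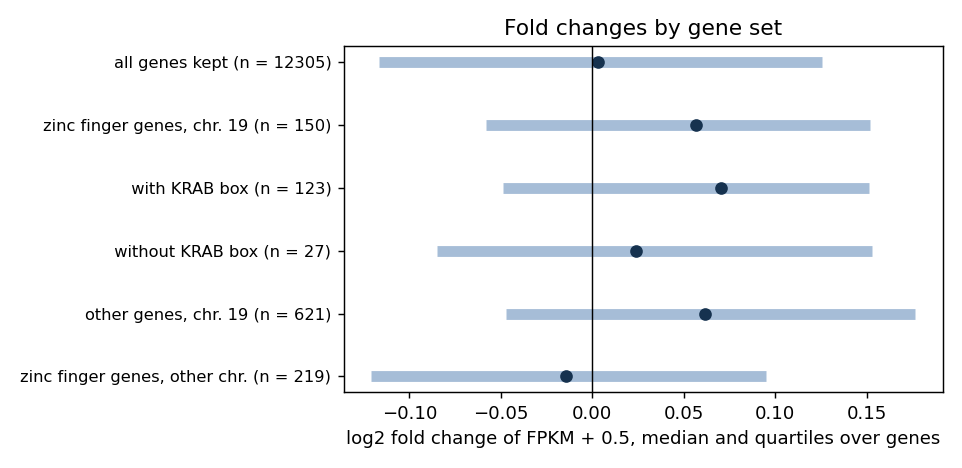
Median (point) and quartiles (bar) of the log2 fold change over the kept genes of each set, TPC1-C1orf106 over TPC1-Vector, with the number of genes after each name; bars show the spread over genes, not an error. The medians of the chromosome 19 zinc finger genes and of the other chromosome 19 genes both lie near 0.06, and that of zinc finger genes elsewhere lies at -0.01. The labels with and without KRAB box stand for box found and not found.

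By chromosome, chromosome 19 with its 771 kept genes had the second highest median of 23 chromosomes, 0.06, after chromosome 20 at 0.13. The lowest was chromosome 10 at -0.25. Zinc finger genes elsewhere ranged around 0. The 28 on chromosome 16 had a median of 0.04, the 27 on chromosome 7 one of -0.01 and the 20 on chromosome 1 one of -0.05.

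**Figure D3:**
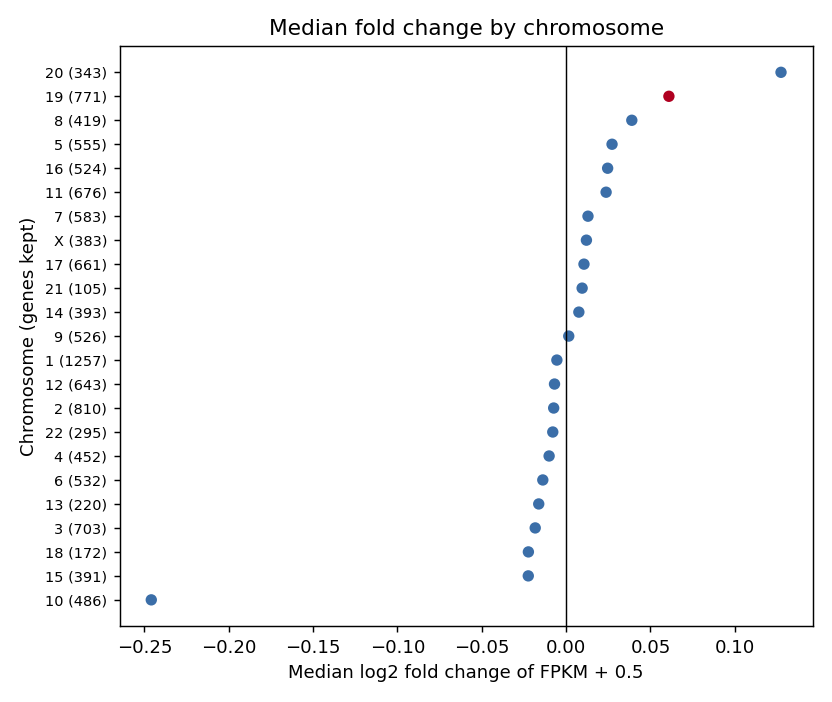
Median log2 fold change of FPKM + 0.5 over the kept genes of each chromosome, ordered by median, with the number of genes after each name. Chromosome 19, in red, lies second at 0.06, between chromosome 20 at 0.13 and the chromosomes nearer 0.

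A KRAB box was looked for in the protein translated from the longest GENCODE coding sequence, and called where at least 16 of 40 positions were those of a usual KRAB A box. It was found in 148 members, with 19 to 33 identical positions, and not in 29, where the most was 13. KRAB genes had the lower levels, with a median of 1.53 FPKM and 50 of 148 under 1 FPKM. Genes in which the box was not found had a median of 4.58 FPKM, with 2 of 29 under 1 FPKM. A box less alike, or one in another protein of the same gene, would be missed. The fold changes of both classes lay close together. The median was 0.07 over 123 kept KRAB genes, of which 81 were higher. It was 0.02 over the 27 kept genes with no box found, of which 16 were higher.

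The number of C2H2 fingers ran from 0 to 32 with a median of 12. The gene with 0 is ZFP36, which codes for tristetraprolin. Its fingers are of another type, CCCH, and bind AU-rich elements in mRNAs to speed their decay, so it shares the name and not the DNA-binding fold. ZFP36 was at 3.51 and 3.26 FPKM. The gene with 32 is ZNF91, known for silencing SVA retrotransposons, at 0.757 and 1.03 FPKM. Levels were lower in the classes with more fingers. Most genes with up to 5 fingers had no KRAB box found, so this split overlaps the split by KRAB box. The 11 genes with up to 5 fingers had a median of 6.74 FPKM, the 36 with 6 to 9 had 2.19 FPKM, the 74 with 10 to 14 had 1.69 FPKM and the 56 with 15 or more had 1.40 FPKM.

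**Figure D4:**
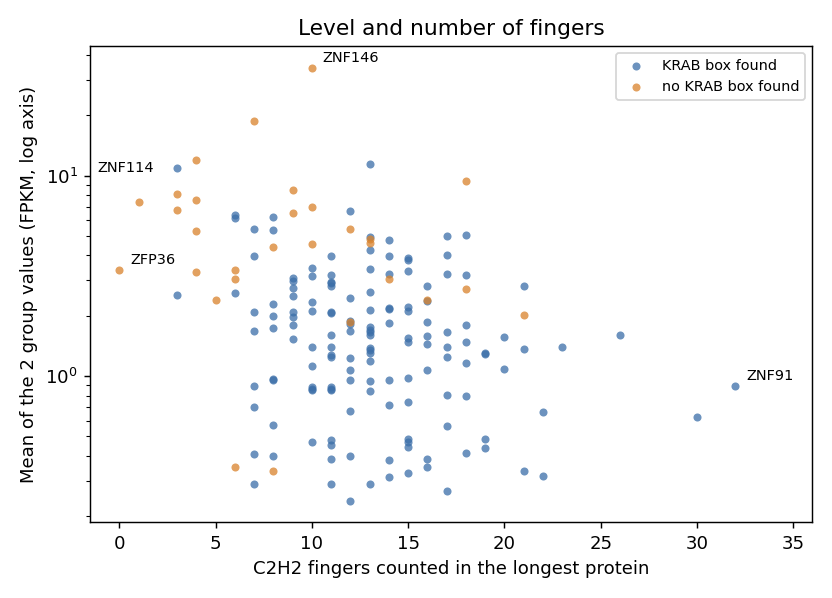
Number of C2H2 fingers in the longest protein of each of the 177 genes (x axis) against the mean FPKM of the 2 groups (y axis, log axis), with genes coloured by whether a KRAB box was found. Genes with few fingers lie higher, with medians from 6.74 FPKM at up to 5 fingers to 1.40 FPKM at 15 or more, and ZNF91 lies farthest right with 32 fingers.

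Some neighbours are near copies, between which the authors' counting could split reads, so their values are uncertain. Of the 177 members, 23 shared at least 10% of the 50-base stretches of their coding sequence with another member of the family on the chromosome. ZNF587 shared 66.6% with ZNF417, a pair known to bind HERV-K elements. ZNF587 was at 5.12 and 4.81 FPKM, a log2 fold change of -0.08, and ZNF417 at 1.78 and 1.87 FPKM, one of 0.06. ZNF324B and ZNF324, which shared 32.3%, had like values of 0.23 and 0.24. ZNF773 and ZNF419, which shared 30.1%, were at 0.40 and 0.09. Other pairs lay on opposite sides of 0. ZNF585A and ZNF585B, which shared 43.2%, were at -0.14 and 0.13, with ZNF585B under the filter. ZNF611 and ZNF600, which shared 23.2%, were at -0.11 and 0.14.

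After ZNF114, the genes lower in TPC1-C1orf106 were led by ZNF653, at 2.84 and 1.95 FPKM, a ratio of 0.687. Its listed position is shared with ECSIT. ZNF274, which brings SETDB1 to the 3′ ends of other zinc finger genes, was at 7.17 and 5.54 FPKM, a ratio of 0.773. ZNF524 was at 3.70 and 2.94 FPKM and ZNF587B at 4.19 and 3.36 FPKM.

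The highest log2 fold change was that of ZNF579, 0.49, from 3.59 to 5.23 FPKM, a ratio of 1.46. ZNF175, known as OTK18 and studied for restraining HIV-1 in macrophages, was at 3.33 and 4.63 FPKM, a ratio of 1.39. ZNF773 was at 1.73 and 2.43 FPKM, ZNF823 at 2.87 and 3.83 FPKM, and ZNF444, a SCAN-domain protein, at 6.58 and 8.55 FPKM. ZNF792 and ZNF121 complete the 7 genes past the smaller threshold, with log2 fold changes of 0.3394 and 0.3245. ZNF579, ZNF444 and ZNF121 were among the 29 genes in which no KRAB box was found.

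Promoters were read for ZNF653 and ZNF274, the lowest log2 fold changes after ZNF114, and for ZNF579 and ZNF175, the highest. This was done to show what lies before their starts. ZNF114 had no promoter entry. The 250 bases upstream of the outermost RefSeq start (assembly GRCh38.p14) are given 5′ to 3′ on the gene's own strand, with GGGCGG, the core of a GC box, and its complement CCGCCC in capitals. ZNF653 (chr19:11505840-11506089, minus strand) and ZNF274 (chr19:58182811-58183060, plus strand) were lower in TPC1-C1orf106, and ZNF579 (chr19:55580849-55581098, minus strand) and ZNF175 (chr19:51571033-51571282, plus strand) higher.
ZNF653: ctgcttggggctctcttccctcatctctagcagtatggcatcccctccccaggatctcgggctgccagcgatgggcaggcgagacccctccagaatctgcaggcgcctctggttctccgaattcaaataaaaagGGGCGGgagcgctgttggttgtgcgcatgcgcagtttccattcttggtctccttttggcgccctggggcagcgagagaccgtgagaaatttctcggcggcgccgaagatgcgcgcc
ZNF274: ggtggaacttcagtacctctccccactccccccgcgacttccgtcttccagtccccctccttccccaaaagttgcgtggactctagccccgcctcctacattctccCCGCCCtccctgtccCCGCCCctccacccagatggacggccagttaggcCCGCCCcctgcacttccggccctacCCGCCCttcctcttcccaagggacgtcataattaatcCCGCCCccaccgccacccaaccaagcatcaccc
ZNF579: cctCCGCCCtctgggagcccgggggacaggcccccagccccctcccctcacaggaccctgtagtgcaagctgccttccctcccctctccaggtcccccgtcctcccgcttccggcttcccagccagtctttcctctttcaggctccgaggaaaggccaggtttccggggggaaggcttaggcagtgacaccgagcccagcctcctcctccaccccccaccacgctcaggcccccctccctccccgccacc
ZNF175: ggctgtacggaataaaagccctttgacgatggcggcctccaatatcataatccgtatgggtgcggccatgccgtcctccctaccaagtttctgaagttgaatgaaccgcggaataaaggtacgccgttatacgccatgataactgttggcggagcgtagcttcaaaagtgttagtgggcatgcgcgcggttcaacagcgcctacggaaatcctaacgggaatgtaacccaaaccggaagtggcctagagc
The ZNF274 promoter holds CCGCCC 5 times, those of ZNF653 and ZNF579 hold the motif 1 time each, on either strand, and that of ZNF175 does not hold these letters.

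The 159 members with a promoter entry had a median GC content of 60% and 16 CpG sites per 250 bases. Over all 27326 promoters of the RefSeq set the medians were 57.6% and 10. That set was not limited to genes with an FPKM value here, so the sets compared are unlike in more than family. Motifs were searched on both strands. GGGCGG was in 59.1% of the members' promoters and 42.2% of all. CCAAT was in 52.2% and 33.0%, and CCGGAA, the core bound by ETS factors, in 38.4% and 14.8%. TATAAA was in 3.14% and 11.2%. TGANTCA, the AP-1 motif, was in 6.29% and 6.57%, and GCATGCGC, part of the NRF1 motif, in 4.4% and 2.83%. The 226 promoters of zinc finger genes on other chromosomes were near the members for GGGCGG (58.4%), CCGGAA (36.3%) and TATAAA (3.98%) and lower for CCAAT (40.7%). In those promoters TGANTCA was in 3.1% and GCATGCGC in 6.19%. A match is a run of letters and not a bound site.

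Along the chromosome, the 177 genes fell into 16 position groups, a new group beginning after a gap of over 1 Mb. Positions are on hg38 as listed in the table. Of the groups 4 hold 1 gene, and 7 hold at least 5 kept genes, with 130 of the 150 kept members between them. The medians of these 7 groups ran from 0.03 to 0.10. With quantile normalization the lowest was 0.0052, and with groups divided at gaps of over 0.5 Mb the highest was 0.16. The counts of higher genes per group, given below, stand beside 64.7% higher over all kept members. Over the other kept genes of chromosome 19 the share was 64.9%, and over all kept genes 50.8%. Differences between groups were not tested.

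**Figure D5:**
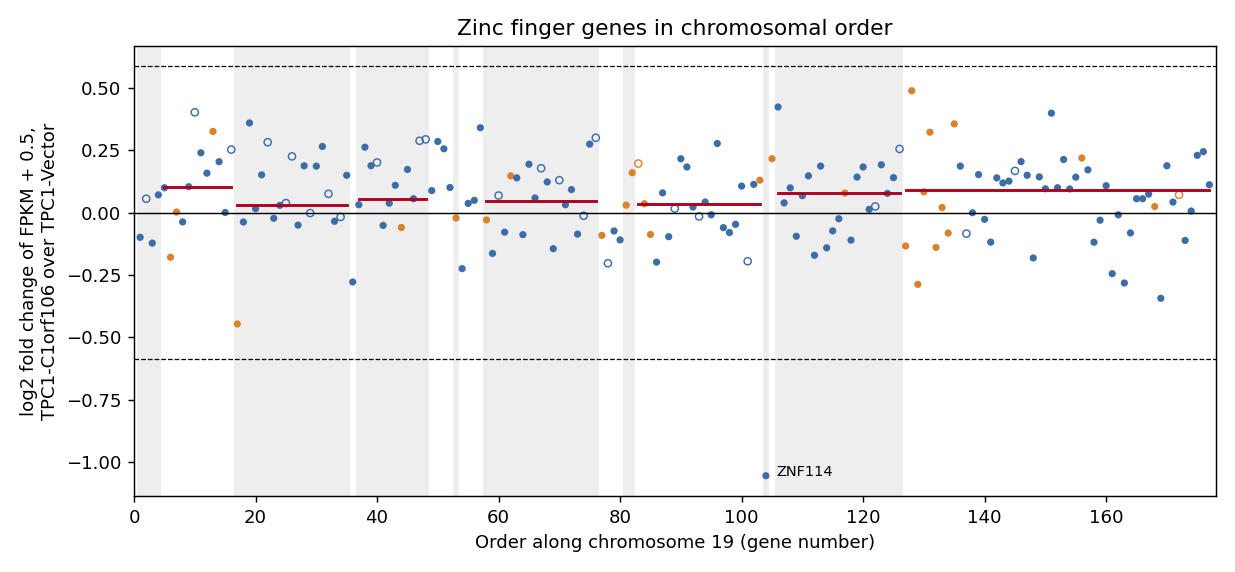
Log2 fold change of FPKM + 0.5 (y axis) for the 177 genes in their order along chromosome 19 (x axis), with position groups shaded in turn, filled points for genes kept, open points for those under 0.5 FPKM, and colours for KRAB box found (blue) or not (orange). Red lines are medians of the 7 groups with at least 5 kept genes, all from 0.03 to 0.10, and the dashed lines mark 1.5-fold; ZNF114 lies alone at -1.05.

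On the short arm, the group at chr19:7069459-9768734 held 12 genes, 10 of them kept, with a median of 0.10 and 8 higher. It ran from ZNF358, at 9.02 and 7.91 FPKM, to ZNF121, at 5.71 and 7.28 FPKM. ZNF559 beside them was at 2.68 and 3.25 FPKM. The group at chr19:11483426-12629862 held 19 genes with 13 kept, a median of 0.03 and 8 higher. It contains both ZNF653 at its low end and ZNF823 at its high end. ZNF700, the most expressed gene there, was at 4.98 and 5.09 FPKM. The group at chr19:19668152-21538277 held 12 genes with 9 kept, a median of 0.06 and 7 higher, from ZNF714 at 5.55 and 5.31 FPKM to ZNF14 at 1.46 and 1.84 FPKM. In the smaller group at chr19:2819873-2944971, 1 of the 3 kept genes was higher. In that at chr19:23223804-24129967, described after its values were seen, all 4 genes were higher. ZNF724P was higher by 0.09, ZNF254 by 0.10, ZNF91 by 0.28 and ZNF675 by 0.26 on the log2 scale. ZNF675, known to bind the signalling adaptor TRAF6, was at 2.88 and 3.53 FPKM.

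On the long arm, the group at chr19:36182059-37719790 held 19 genes with 14 kept, a median of 0.04 and 8 higher. It ran from ZNF565, at 1.33 and 1.13 FPKM, to ZFP30, at 0.557 and 0.778 FPKM. ZNF260, a fingers-only protein that works with GATA4 in heart cells, was at 4.55 and 5.10 FPKM. The group at chr19:43533187-45076430 held 21 genes with 17 kept, a median of 0.04 and 10 higher, from ZNF283 at 3.04 and 2.58 FPKM to ZNF226 at 2.88 and 3.59 FPKM. In the small group at chr19:34677638-34964049, 3 of the 4 kept genes were higher. In that at chr19:39406846-40090938, described after its values were seen, none of the 3 kept genes was higher. ZFP36, ZNF780A and ZNF780B lay between -0.11 and -0.07.

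The group at chr19:51571277-53458261 held 21 genes with 19 kept, a median of 0.08 and 13 higher, from ZNF432 at 1.51 and 1.29 FPKM to ZNF175. ZNF350, known as ZBRK1 for its link to BRCA1, was at 1.02 and 0.919 FPKM. ZNF83 was at 2.96 and 3.15 FPKM. The last group, chr19:55476331-58489533, near the end of the long arm, was the largest, with 51 genes, 48 kept, a median of 0.09 and 32 higher. It held both the highest member, ZNF579, and the third lowest, ZNF274. ZNF304 was at 1.5 and 1.68 FPKM, ZNF671 at 1.55 and 1.5 FPKM and ZNF580 at 8.54 and 7.70 FPKM. ZNF134 was at 4.16 and 4.92 FPKM.

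Genes of other kinds inside the spans of these 7 groups numbered 67 and had a median of 0.11, and the 554 genes of chromosome 19 outside them 0.06. ZNF114 lies alone, at chr19:48270098-48287608. Its 35 kept neighbours within 1 Mb had a median of 0.07, from -0.76 to 0.75, with 20 higher. The nearest, CARD8, an inflammasome sensor whose position is shared with its antisense gene, was at 10.4 and 8.13 FPKM, and EMP3 was at 151 and 140 FPKM. ZNF473, known for its part in histone mRNA processing, also lies alone and was at 2.49 and 2.97 FPKM, and ZNF333 was at 1.02 and 0.753 FPKM.

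The partners that KRAB proteins recruit were all expressed and close to equal. All 17 genes of the corepressor list had log2 fold changes from -0.20 to 0.18, a median of -0.02 and 7 higher. Their mean levels ran from 8.46 to 197 FPKM. Of all kept genes at 5 FPKM or more, 7649 of 8584 lay within 0.3219, as did all 17, and 51.3% were higher. Values this close are therefore common at such levels. TRIM28, the scaffold that KRAB boxes bind, was at 199 and 195 FPKM, far above any zinc finger gene in the set. SETDB1 was at 12.2 and 10.7 FPKM. The HP1 genes CBX5 and CBX3 were at 55.6 and 48.4 FPKM and at 145 and 150 FPKM. DNMT1, which copies DNA methylation after replication, was at 60.6 and 59.1 FPKM, and its partner UHRF1 at 64.0 and 72.7 FPKM.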

How the data were processed

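RNA-seq of 4 TPC1 libraries, 2 per group, was used. The deposited values are FPKM, 1 per gene and group, made by the authors with Cufflinks 2.1.1 and Cuffdiff on hg38 per the submitters' processing notes. The aligner and annotation are not given in the sources used here. The library kit is NEBNext in the labels and VAHTS in the paper. The authors' own log2 ratios, p-values and q-values were not used. The planned limma fit could not be made with 1 value per group, so differences of log2(FPKM + 0.5) were described over genes averaging 0.5 FPKM or more, called at 1.5-fold. FPKM are relative values, and depth and counting error are unknown.

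Members, lists and named genes were chosen with earlier results of these data known. Named were the 5 largest differences in each direction among members at 1 FPKM or more in the higher group, the 5 highest levels, a list of genes with known roles (of which ZNF331, ZNF93 and ZNF382 were not analysed here), the extremes of each position group with at least 5 kept members, and the corepressor list. ZNF559, ZNF675, ZNF254, ZNF724P, ZNF700, ZNF350, ZNF134, ZNF333, ZNF780A, ZNF780B, ZNF792, ZNF784, ZNF470, ZNF493 and the near copies were named after their values were seen. All 177 members matched a protein-coding gene of GENCODE release 29, whose coding sequences gave the KRAB box, the fingers (C-x(2,4)-C-x(12)-H-x(3,5)-H) and shared 50-base stretches. Positions shared with another gene were found for 12 members. Promoters are from RefSeq, with 159 members matched. Python 3.11.15, numpy 2.4.6, pandas 2.3.3 and matplotlib 3.10.9 were used, and the code was tested on simulated data. Other pseudocounts, filters, scalings, folds and gaps were tried.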

Additional observations from a re-analysis of the deposited data

How the results depend on the processing

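With pseudocounts of 0.1 and 1, no filter or a mean of at least 1 FPKM, median-of-ratios scaling, quantile normalization, and without members that share a position, no member was 1.5-fold higher and ZNF114 was the 1 lower, with a log2 fold change from -1.10 to -1.01. The members' median ran from 0.043 to 0.078 over these settings. With quantile normalization 90 of 150 members (60%) were higher, against 48.3% of all kept genes. With a threshold of 0.3219 on the log2 scale, 7 members were higher and 3 lower, which follows from the lower threshold. With a fold of at least 2 the counts were 0 and 1. With gaps of over 0.5 Mb there were 22 position groups, and of over 2 Mb 8. The lowest median of a position group ran from 0.0052 (quantile normalization) to 0.039, and the highest from 0.075 (pseudocount of 1) to 0.16 (gaps of over 0.5 Mb). Of 32 named genes none changed direction, and ZFP30 (0.42) and ZNF91 (0.40) moved with a pseudocount of 0.1. No paired analysis was possible because the table has 1 value per group, and leaving out each replicate was not run for the same reason. Without depth, differences of this size in genes near 1 FPKM cannot be set against counting error.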
